A study of Mus musculus with 8 samples.

Results

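The PYHIN family, also called the Ifi200 family, was followed through its 7 listed members, Mnda, AI607873, Ifi203, Pyhin1, Ifi204, Aim2 and Mndal, which are 7 of the 27998 gene rows of the deposited tables and were taken by these symbols. RNA of single bone marrow cells was measured in 16 wild-type mice aged 12 to 14 weeks, 4 at each time point. Treated mice had received a subcutaneous injection of recombinant mouse interferon-α (IFNα, 50000 IU per 20 g of body weight) and were collected after 3, 24 or 72 h, whereas control mice had received 100 µl of phosphate-buffered saline (PBS). Cells were sorted as lineage-negative and cKit-positive (LK) hematopoietic stem and progenitor cells, with added LK CD150+ CD48- CD34- cells to enrich hematopoietic stem cells (HSCs), and a set of 4 hashtag antibodies marked the mice that shared a droplet library. Each time point is therefore 1 library, and the time point and its library cannot be told apart.

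PYHIN proteins carry a pyrin domain, through which proteins assemble with each other, and HIN domains that bind double-stranded DNA. Aim2 is the best known member and joins cytosolic DNA to the adaptor Pycard and to caspase-1 in an inflammasome, whereas Ifi204 is usually set beside human IFI16 and linked to interferon induction through STING. Many genes of the family are known as interferon-stimulated genes of myeloid and lymphoid cells, and the mouse genes lie next to each other in a cluster on chromosome 1.

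The 7 members spanned 592 kb of this cluster in the GENCODE vM21 annotation of GRCm38 (mm10). From the lowest coordinate on, Aim2 lay at chr1:173350879-173466040 and Pyhin1 (named Ifi209 in vM21) at chr1:173630917-173647928, both on the plus strand. They were followed on the minus strand by AI607873 (Ifi207) at chr1:173723427-173741747, Ifi204 at chr1:173747293-173766943, Mndal at chr1:173849126-173942491, Mnda (Ifi211) at chr1:173896345-173913046 and Ifi203 at chr1:173920407-173942672. All 7 are annotated as protein coding. The Mndal span covers the whole of Mnda, with 0 shared exon bases, and 22085 bases of Ifi203, with 37 shared exon bases. The family consists of close paralogs, and how reads were divided between Mndal and its overlapping neighbors is uncertain, since the annotation used for counting is not given in the sources used here.

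Promoter windows of 300 bases, from 250 before to 50 after an annotated start site, were taken from RefSeq on GRCm38.p6 and were present for 6 of the 7 members, without Ifi204. They are shown as a description of the starts, and whether their letters relate to the changes of the members was not tested. Capitals mark GAAANNGAA, the spacing of an interferon-stimulated response element, and in Aim2 GAGGAAGT, a longer form of the site of PU.1-type ETS factors. Its last letters, GGAAGT, are not particular to Aim2. They also stand, in lower case, in the windows of Mnda and AI607873 and on the opposite strand in that of Pyhin1. All sequences run in the direction of transcription. The windows are chr1:173912997-173913296 for Mnda, chr1:173741760-173742059 for AI607873, chr1:173942443-173942742 for Ifi203 and chr1:173880138-173880437 for Mndal, all on the minus strand, and chr1:173630609-173630908 for Pyhin1 and chr1:173420354-173420653 for Aim2 on the plus strand. The RefSeq starts of Aim2 and Mndal lie inside the wider vM21 spans.
Mnda: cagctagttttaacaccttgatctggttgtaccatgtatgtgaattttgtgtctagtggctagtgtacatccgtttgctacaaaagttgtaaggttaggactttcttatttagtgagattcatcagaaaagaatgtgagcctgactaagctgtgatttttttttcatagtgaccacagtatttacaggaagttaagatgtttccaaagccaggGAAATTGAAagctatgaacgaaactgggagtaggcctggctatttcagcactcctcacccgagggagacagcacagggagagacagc
AI607873: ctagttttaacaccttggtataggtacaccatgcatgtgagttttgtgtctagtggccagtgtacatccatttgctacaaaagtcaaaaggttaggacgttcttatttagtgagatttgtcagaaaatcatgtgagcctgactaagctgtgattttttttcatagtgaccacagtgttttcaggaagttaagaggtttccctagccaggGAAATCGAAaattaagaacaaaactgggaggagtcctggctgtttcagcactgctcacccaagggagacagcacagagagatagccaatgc
Ifi203: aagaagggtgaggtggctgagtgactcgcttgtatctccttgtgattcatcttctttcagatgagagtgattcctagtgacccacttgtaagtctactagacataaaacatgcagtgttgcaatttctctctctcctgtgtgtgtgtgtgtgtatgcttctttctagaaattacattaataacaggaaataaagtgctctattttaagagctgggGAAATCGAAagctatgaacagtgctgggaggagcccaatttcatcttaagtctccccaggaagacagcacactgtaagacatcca
Mndal: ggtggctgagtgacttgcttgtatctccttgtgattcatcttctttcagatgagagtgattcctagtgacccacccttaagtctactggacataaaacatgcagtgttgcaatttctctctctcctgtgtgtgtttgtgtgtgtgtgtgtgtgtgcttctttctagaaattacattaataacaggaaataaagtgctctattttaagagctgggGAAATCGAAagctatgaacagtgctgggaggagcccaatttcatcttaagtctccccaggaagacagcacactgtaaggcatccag
Pyhin1: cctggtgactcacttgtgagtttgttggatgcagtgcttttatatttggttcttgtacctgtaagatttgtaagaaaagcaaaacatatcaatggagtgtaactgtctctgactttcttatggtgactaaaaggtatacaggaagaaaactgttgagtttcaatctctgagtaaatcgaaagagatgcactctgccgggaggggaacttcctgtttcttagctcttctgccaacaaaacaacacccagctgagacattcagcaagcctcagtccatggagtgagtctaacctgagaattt
Aim2: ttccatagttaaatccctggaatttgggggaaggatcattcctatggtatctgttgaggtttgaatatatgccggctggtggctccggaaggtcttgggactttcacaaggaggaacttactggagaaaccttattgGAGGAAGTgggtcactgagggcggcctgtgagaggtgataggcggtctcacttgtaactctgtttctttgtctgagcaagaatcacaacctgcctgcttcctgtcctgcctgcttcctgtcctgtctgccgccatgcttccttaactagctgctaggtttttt

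In these windows, GAAANNGAA stood in transcription direction from base -37 to -29 before the start of Mnda, from -41 to -33 in AI607873, from -35 to -27 in Ifi203 and from -36 to -28 in Mndal. The motif with 10 bases on each side, 29 bases in all, was identical between Ifi203 and Mndal, and Mnda shared 24 and AI607873 21 of the 29 bases with them:
Mnda: caaagccaggGAAATTGAAagctatgaac
AI607873: cctagccaggGAAATCGAAaattaagaac
Ifi203: aagagctgggGAAATCGAAagctatgaac
Mndal: aagagctgggGAAATCGAAagctatgaac
The Aim2 window held GAGGAAGT from -113 to -106 and no GAAANNGAA, and the Pyhin1 window held neither of them nor TTCNNNGAA, the spacing of a gamma-activated site. Ifi203 and Mndal have a further annotated start each. The further Mndal window (chr1:173879909-173880208) held GAAANNGAA on the opposite strand from -53 to -45, and the further Ifi203 window (chr1:173942623-173942922) held none of the 3 motifs. Both strands were searched, and TTCNNNGAA reads the same on both. Of all 32851 windows of this length, 8.56% held GAAANNGAA, 8.3% TTCNNNGAA and 3.2% GAGGAAGT. A match of letters is a description of the window and not a site, and its absence says nothing of factors that may bind elsewhere.

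The stated cell filter left 10046 cells, between 1661 (3 h) and 3462 (24 h) per library, with a median of 12017 (3 h) to 18964.5 (control) unique molecular identifiers (UMIs) per cell. Barcodes without a hashtag made up 17.2% of the 3 h library and 4.37% to 5.45% of the others, and 0 or 1 kept barcode was shared by any pair of libraries. Kept cells of a mouse summed to between 1102706 and 26446327 UMIs, and the lowest sum belongs to control mouse 4 with 58 cells. Markers of cell types that the sort should remove were nearly all found in control mice, where 7 of 7 listed macrophage, 6 of 6 dendritic cell, 6 of 6 B cell, 5 of 6 T and NK cell (Cd8a at 0 UMIs) and 5 of 5 mature neutrophil markers had a UMI. At 3 h it was 7 of 7, 4 of 6 (Siglech and Cd209d at 0), 4 of 6 (Pax5 among those at 0), 3 of 6 (Cd3e, Cd8a and Gzma at 0) and 5 of 5, in a library of fewer cells. The 7 macrophage markers summed to 3.48 to 13.7 CPM (counts of UMIs scaled to a common library size) in control mice and 2.40 to 4.68 CPM at 3 h, the 6 dendritic cell markers to 3.48 to 32.0 and 9.19 to 34.7 CPM, the 6 B cell markers to 40.9 to 52.1 and 33.6 to 36.8 CPM and the 5 mature neutrophil markers to 25.2 to 33.9 and 20.5 to 30.6 CPM. The 6 T and NK cell markers summed to 327 to 605 CPM in control mice and 314 to 416 CPM at 3 h, nearly all of it Nkg7, which alone stood at 327 to 604 and 313 to 415.6 CPM. Of all markers in these lists that could be tested, Vcam1 and Adgre1 fell at 3, 24 and 72 h and Cd79a at 3 and 72 h, and none rose. Vcam1 is no marker of macrophages alone here. It was also among the 10 genes of largest fold of the later neutrophil progenitor-like cluster described below. That cluster held 178 control cells and 18, 55 and 36 cells at 3, 24 and 72 h.

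To find out how the family responded in the compartment as a whole, the UMIs of a mouse were added up across its kept cells and scaled to CPM by TMM. At 3 h, 6 of the 7 members rose, by between 5.51-fold (Pyhin1) and 74.1-fold (Ifi204), and at 24 h they had come down again in every case. Called here and below means an adjusted p under 0.05 and a log2 fold change beyond 1 in either direction, by edgeR's quasi-likelihood test over all 12042 genes tested with Benjamini-Hochberg adjustment. At 3 h, 6.9% of all genes were called (629 higher and 202 lower), at 24 h 2.22% and at 72 h 2.86%. The median log2 fold change of the 7 members against control was 3.38, 1.05 and -0.22 at 3, 24 and 72 h, beside -0.03, 0.00 and 0.02 over all genes. In such sums, a smaller share of cells of a type and less RNA per cell cannot be told apart. Between control and 3 h, HSC-like cells, as named below, went from 8.33% to 15.7% of kept cells and neutrophil progenitor-like cells from 21.1% to 8.73%. With equal weight to every class, 6 members were again called at 3 h. That fit differs in more than the weights. It used limma on log2 of the mean CPM of the 6 classes plus 1, scaled by library size, in 15 mice. Cells outside these 6 classes were not in it. AI607873 passed the filter on low counts only through the 3 h mice, so it had to differ there.

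Ifi204, the counterpart of human IFI16 in many studies of DNA sensing, had the highest fold of the 7 members at 3 h over all kept cells. Without a small cluster led by Cd74, described below, AI607873 was higher (6.91 against 6.41 on the log2 scale). Control mice 1 to 4 had 2.23, 1.14, 1.54 and 3.48 CPM, and the mice at 3 h had 124, 111, 149.7 and 115.5 CPM. At 24 h the values were 6.54, 7.52, 5.85 and 8.52 CPM and at 72 h 1.70, 0.673, 0.715 and 0.778 CPM. The mice at 3 h and at 24 h lay above every control mouse, whereas those at 72 h overlapped the controls. The log2 fold change was 6.21 (SE 0.17, adjusted p = 7.79e-19) at 3 h, 2.09 (SE 0.21, adjusted p = 1.52e-07) at 24 h and -0.72 (SE 0.36, adjusted p = 0.118) at 72 h. Without 72 h mouse 1, the value at 72 h was -1.21 with an adjusted p of 0.0276.

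Mnda and AI607873 were likewise near 0 in control mice and were induced together with Ifi204. Mnda had 5.18, 1.82, 2.39 and 0.870 CPM in control mice 1 to 4, 106, 74.1, 88.8 and 103 CPM at 3 h, 7.27, 7.08, 6.59 and 8.75 CPM at 24 h and 1.84, 1.01, 1.43 and 0.778 CPM at 72 h. AI607873 had 0.466, 0.170, 0.585 and 0 CPM in control mice, 17.5, 20.1, 14.7 and 15.9 CPM at 3 h, 1.03, 0.774, 0.672 and 1.16 CPM at 24 h and 0.295, 0.112, 0 and 0 CPM at 72 h. In both genes the ranges of control and of 3 and 24 h did not overlap, and those of control and 72 h did.

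Mnda rose by 4.90 (SE 0.19, adjusted p = 1.64e-15) on the log2 scale at 3 h and by 1.26 (SE 0.23, adjusted p = 0.000314) at 24 h, and it was 1.23 below control at 72 h (log2 fold change -1.23, SE 0.36, adjusted p = 0.0108). The last of these rested on control mouse 1, which held more Mnda than the other controls: without it, the log2 fold change was -0.65 with an adjusted p of 0.139. AI607873 rose by 5.35 (SE 0.28) at 3 h, where the filter on low counts fixed that it differed. It rose by 1.15 (SE 0.38, adjusted p = 0.0287) at 24 h and had a log2 fold change of -1.74 (SE 0.68, adjusted p = 0.0476) at 72 h. Its call at 24 h was lost without control mouse 1 (1.27, adjusted p = 0.0522), control mouse 2 (0.82, adjusted p = 0.136), 24 h mouse 1 (1.11, adjusted p = 0.0502) or 24 h mouse 4 (0.99, adjusted p = 0.0839), and its call at 72 h was lost without any of 10 of the 16 mice (control mice 1 and 3, 3 h mice 1 and 4, 24 h mice 1, 2 and 3 and 72 h mice 2, 3 and 4), with values from -1.75 to -1.35 and adjusted p from 0.0506 to 0.174. Without 72 h mouse 1 its value at 72 h was -3.27 (adjusted p = 0.00984). The control values of AI607873 rest on 23 UMIs in all, and those at 72 h on 5.

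Ifi203 and Mndal, which encode nuclear PYHIN proteins and overlap in the annotation, already had many UMIs in control mice and moved in parallel. Ifi203 had 68.0, 66.4, 75.5 and 89.6 CPM in control mice 1 to 4 and 710.3, 759, 789 and 711 CPM at 3 h. At 24 h it had 145, 167, 144 and 135 CPM and at 72 h 95.6, 95.3, 84.99 and 88.2 CPM. Every mouse at 3 and 24 h lay above all control mice, and the values at 72 h overlapped the highest control.

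Mndal had 75.3, 72.5, 75.4 and 80.9 CPM in control mice 1 to 4, 629.6, 639, 679 and 615 CPM at 3 h, 131, 145, 131 and 129 CPM at 24 h and 81.2, 82.9, 81.0 and 79.5 CPM at 72 h. The 3 and 24 h mice lay above the controls here too. Ifi203 rose by 3.38 (SE 0.07, adjusted p = 1.18e-20) on the log2 scale at 3 h and by 1.05 (SE 0.07, adjusted p = 8.56e-11) at 24 h. Without 24 h mouse 2 the latter was 0.99, just under the fold limit. Mndal rose by 3.098 (SE 0.05, adjusted p = 2.54e-23) at 3 h, while its difference of 0.84 (SE 0.04, adjusted p = 1.88e-12) at 24 h passed the adjusted p and not the fold limit. At 72 h, neither gene passed the fold limit (Ifi203 0.35, adjusted p = 0.000513, Mndal 0.12, adjusted p = 0.0504), and with equal weight to every class both turned to below 0 (-0.01, adjusted p = 0.923, and -0.10, adjusted p = 0.129).

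Pyhin1, a further nuclear member, had 26.5, 23.7, 21.2 and 20.9 CPM in control mice 1 to 4 and 140.4, 113, 122 and 148 CPM at 3 h. At 24 h it had 27.7, 31.0, 31.5 and 31.5 CPM and at 72 h 23.3, 21.3, 19.7 and 16.7 CPM. Its 3 h mice were far above all others, and the 24 h mice just above the highest control. The log2 fold change was 2.46 (SE 0.09, adjusted p = 7.27e-16) at 3 h. The values of 0.36 (adjusted p = 0.00595) at 24 h and -0.22 (adjusted p = 0.104) at 72 h were not called.

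Aim2, the inflammasome sensor, was the exception. Control mice 1 to 4 had 22.2, 22.1, 22.9 and 16.5 CPM, 3 h mice 25.4, 25.1, 29.8 and 24.6 CPM, 24 h mice 27.0, 25.3, 26.9 and 27.8 CPM and 72 h mice 24.1, 27.2, 26.0 and 24.6 CPM. All treated mice lay above all control mice, but by little: the log2 fold changes were 0.26 (SE 0.08, adjusted p = 0.0108), 0.27 (SE 0.07, adjusted p = 0.00421) and 0.20 (SE 0.07, adjusted p = 0.0315) at 3, 24 and 72 h, none of which reached the fold limit. With library size in place of TMM scaling, which moved the median of all genes at 3 h from -0.03 to -0.175 and the called genes to 529 higher and 302 lower, Aim2 stood at 0.11 (adjusted p = 0.23) at 3 h.

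**Figure D1:**
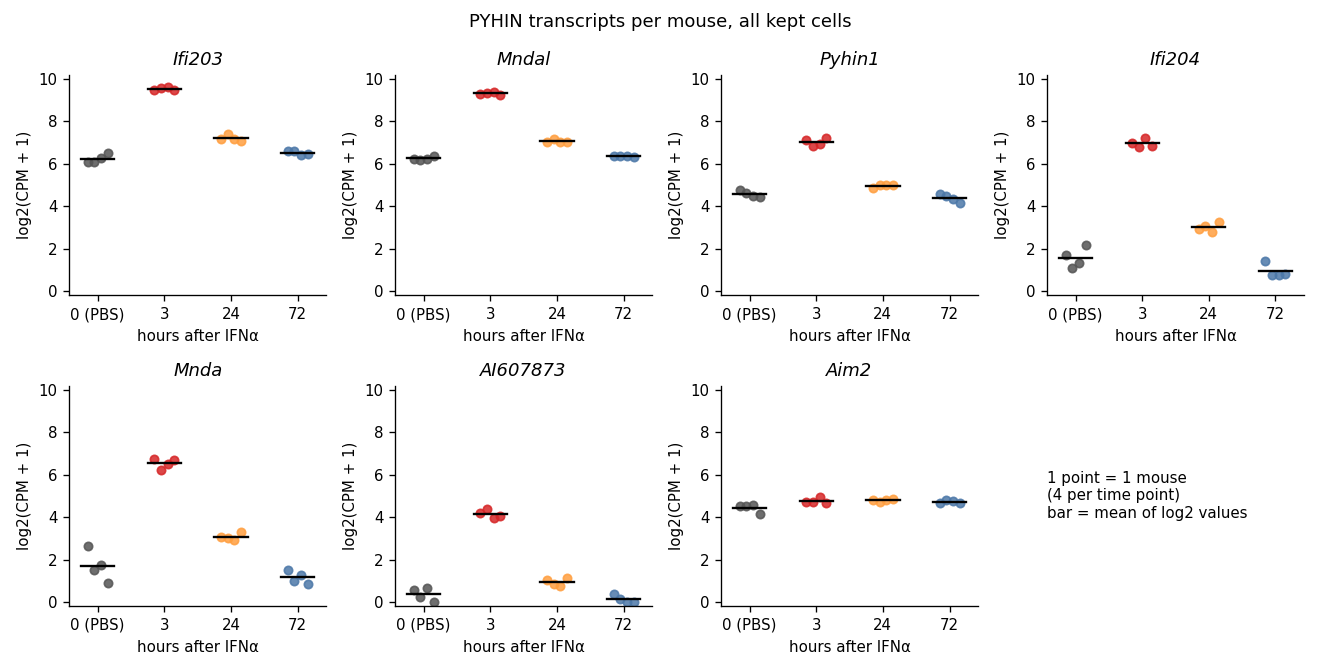
PYHIN transcripts in the sum of all kept cells of each mouse, as log2(CPM + 1) against hours after IFNα, with 1 point per mouse (4 per time point) and a bar at the mean of the log2 values. In 6 panels the 3 h mice stand above all others and the values come down by 24 and 72 h, while Aim2 stays between 16.5 and 29.8 CPM.

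The return from the 3 h level was measured by the steps between neighboring time points. From 3 to 24 h, the same 6 members that had risen fell, by 2.10 (Pyhin1), 2.26 (Mndal), 2.33 (Ifi203), 3.64 (Mnda), 4.12 (Ifi204) and 4.20 (AI607873) on the log2 scale, with adjusted p between 7.31e-21 and 9.56e-13 by edgeR's quasi-likelihood test. AI607873 had to fall, since it passed the filter only through the 3 h mice. In this step 3.55% of all genes were called. From 24 to 72 h, Mnda fell by a further 2.50, Ifi204 by 2.81 and AI607873 by 2.89, where 0.756% of all genes were called. Ifi203 (-0.70), Mndal (-0.72) and Pyhin1 (-0.58) had adjusted p of 6.64e-08, 3.18e-11 and 0.000299 in this step without reaching the fold limit, and Aim2 was at 0.01 and -0.07 in the 2 steps (adjusted p = 0.962 and 0.559). These steps share mice with the contrasts against control.

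Cells were assigned to progenitor classes by clustering the control cells without the listed PYHIN rows and a list of interferon-response genes and carrying the labels over to treated cells. A further PYHIN row described below, Gm4955, was not among those left out. The 6 classes tested were HSC-like (led by Hlf and Ly6a among its markers), lymphoid-primed multipotent progenitor-like (LMPP-like: Dntt, Flt3, Satb1 and Lsp1), monocytic progenitor-like (Irf8, Csf1r, Ccr2, Ms4a6c, F13a1 and others), neutrophil progenitor-like (Elane, Mpo, S100a8 and S100a9), erythroid progenitor-like (Car1, Hba-a1 and Ermap) and megakaryocyte (MK) progenitor-like (Pf4, Itga2b and Gp1bb). A class held between 106 and 521 cells per time point, and mice with fewer than 10 cells of a class were left out, so that 5 classes have 3 control mice and the neutrophil progenitor-like class has 4. Basophil, mast cell and eosinophil progenitor-like cells, with 14 to 61 cells per time point, and unnamed clusters with 597 to 1057 cells were not tested. The names were rebuilt here and are not the study's own annotation. They depend on the method. With label transfer without correction, 94.0% of cells had the same class. With clustering on all variable genes it was 69.6%, and with classes from markers alone 64.8%.

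At rest, the order of the classes by CPM differed between members. CPM is a share of the UMIs of a class, and an order by UMIs per cell was not tested. HSC-like control cells had a median of 10260.5 UMIs, against 28267 in monocytic and 35376 in neutrophil progenitor-like cells. Ifi203 was highest in HSC-like cells (216 ± 30.1 CPM, SD, n = 3) and lower in LMPP-like (148 ± 27.9), MK progenitor-like (84.8 ± 2.67), monocytic progenitor-like (73.7 ± 5.07), neutrophil progenitor-like (26.9 ± 5.14, n = 4) and erythroid progenitor-like cells (4.46 ± 1.46), and in this order no class overlapped the next over its mice. Mndal followed nearly the same order, from 144.7 ± 32.1 CPM in HSC-like and 133 ± 15.3 in LMPP-like cells, which overlapped, down to 45.9 ± 6.24 in neutrophil and 18.2 ± 2.69 in erythroid progenitor-like cells.

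Pyhin1 was instead a gene of the myeloid classes. It stood at 63.3 ± 0.491 CPM in monocytic and 36.3 ± 7.94 CPM in neutrophil progenitor-like control cells, at 16.4 ± 6.56 in LMPP-like and 7.93 ± 7.05 in HSC-like cells, which overlapped, at 0.628 ± 0.561 in MK progenitor-like cells, and at 0 UMIs in erythroid progenitor-like cells. It was also among the 10 genes of largest fold of the monocytic progenitor-like cluster, although it was left out of the clustering. Aim2 had between 12.3 CPM (erythroid) and 26.7 CPM (neutrophil progenitor-like) in the control classes. Mnda, AI607873 and Ifi204 had at most 3.66, 0.476 and 3.54 CPM in any control class.

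At 3 h, 6 of 7 members were called higher in the HSC-like, LMPP-like and monocytic progenitor-like classes (beside 5.68%, 4.47% and 4.79% of all genes called), and every tested member but Aim2 in the neutrophil (3.71%), erythroid (4.74%) and MK progenitor-like classes (4% of all genes). AI607873 did not pass the filter on low counts in the last 3 of these classes, nor Mnda in the erythroid progenitor-like class. These calls are descriptions where a member passed the filter only through the 3 h mice and so had to differ. That holds for AI607873 in the first 3 classes, for Ifi204 in the HSC-like, LMPP-like, erythroid and MK progenitor-like classes, for Mnda in the HSC-like, LMPP-like and MK progenitor-like classes and for Pyhin1 in the HSC-like, erythroid and MK progenitor-like classes. Of the members that would have passed without the 3 h mice, Ifi203 and Mndal were called higher in all 6 classes. Pyhin1 was called in the LMPP-like, monocytic and neutrophil progenitor-like classes, and Mnda and Ifi204 in the monocytic and neutrophil progenitor-like classes. Aim2 was called in none. In the HSC-like, LMPP-like and neutrophil progenitor-like classes it had an unadjusted p under 0.05 by edgeR's quasi-likelihood test.

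In HSC-like cells, Ifi203 reached 1569 ± 77.9 CPM (n = 4) at 3 h, Mndal 1184 ± 65.1, Ifi204 287 ± 41.0, Pyhin1 52.5 ± 14.4, Mnda 52.4 ± 15.6 and AI607873 48.7 ± 10.24 CPM. The log2 fold changes were 2.85 for Ifi203 (SE 0.10, adjusted p = 3.03e-27) and 3.00 for Mndal (SE 0.11, adjusted p = 1.17e-26). Ifi204 stood at 6.09 (SE 0.28), a description, since it passed the filter there only through the 3 h mice. Of the 6 classes tested, HSC-like cells had the highest mean CPM of Ifi203, Mndal and Ifi204 at 3 h. Over the mice, HSC-like and LMPP-like cells did not overlap in Ifi203 (1002 ± 28.8 CPM in the latter) and Mndal (778 ± 22.2 CPM). These are shares of UMIs and not UMIs per cell. Median depth over all kept cells at 3 h was 7861 UMIs in HSC-like, 13241 in LMPP-like and 22881 in monocytic progenitor-like cells. Ifi204 stood at 158 ± 26.4 CPM in LMPP-like and 149.5 ± 29.2 CPM in monocytic progenitor-like cells, at 69.4 ± 16.1 in neutrophil, 49.4 ± 24.9 in MK and 46.8 ± 26.5 CPM in erythroid progenitor-like cells.

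Mnda and Pyhin1 were highest at 3 h, of the 6 classes tested, in the monocytic progenitor-like class, with 225 ± 55.4 and 342 ± 45.03 CPM, followed by the neutrophil progenitor-like class with 191 ± 20.0 and 195 ± 28.1 CPM and the LMPP-like class with 119.8 ± 29.5 and 187 ± 41.7 CPM. Mnda in the LMPP-like class rose from 0.734 ± 0.686 CPM (log2 fold change 7.27, SE 0.38), a description, since it passed the filter there only through the 3 h mice. In the MK progenitor-like class it reached 12.8 ± 7.52 CPM, and it did not pass the filter there without 3 h mouse 2, 3 or 4. In the erythroid progenitor-like class, Mnda had 0 UMIs in control and 3 h mice alike. The 6 cells of the small Cd74 cluster at 3 h, which were not tested, had higher pooled values than these classes, with 1331 CPM of Mnda, 761 of Pyhin1, 1636 of Ifi203, 1484 of Mndal and 799 of Ifi204.

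The erythroid progenitor-like class had the least of the family at rest and took up Ifi203, Mndal, Ifi204 and Pyhin1 at 3 h. Ifi203 went from 4.46 ± 1.46 to 256 ± 70.2 CPM (log2 fold change 5.85, SE 0.28, adjusted p = 1.01e-16) and Mndal from 18.2 ± 2.69 to 345 ± 66.9 CPM (4.26, SE 0.18, adjusted p = 6.86e-18). Pyhin1 went from 0 UMIs in the control mice to 13.2 ± 7.05 CPM. Its pooled level at 3 h is 29.0-fold above a floor of 3 counts over the control group. Counting error and spread of the 3 h mice are not in this fold. Pyhin1 did not pass the filter without 3 h mouse 1, 3 or 4. In the MK progenitor-like class, Ifi204 went from 0 UMIs to 49.4 ± 24.9 CPM, 51.1-fold above such a floor. AI607873 went from 0 UMIs to 3.64 ± 3.36 CPM on 8 UMIs, 4.01-fold above such a floor and not tested.

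**Figure D2:**
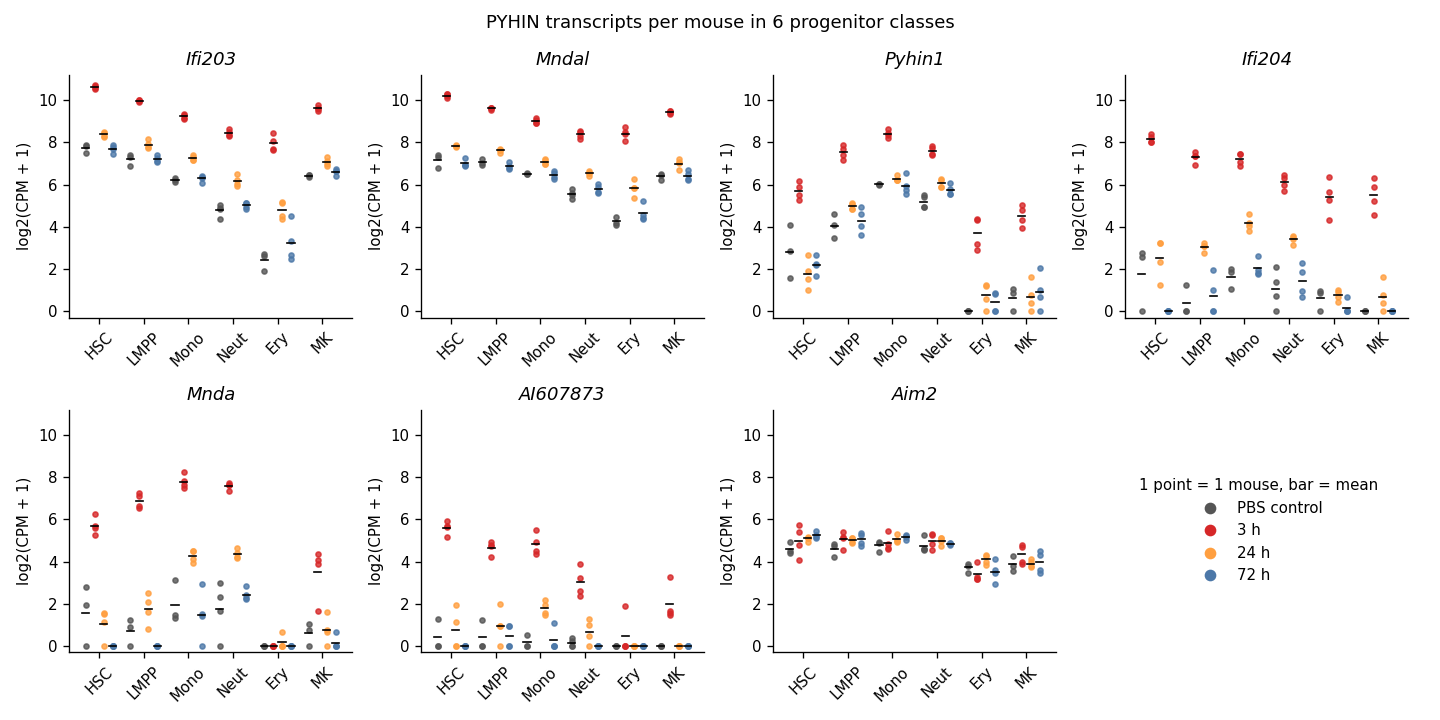
PYHIN transcripts per mouse in the 6 classes tested, as log2(CPM + 1), with 1 point per mouse, a bar at the mean and the time points side by side within each class (HSC, LMPP, monocytic, neutrophil, erythroid and MK progenitor-like). Ifi203 and Mndal descend from the HSC-like to the erythroid progenitor-like class in control mice, Pyhin1 and Mnda at 3 h are highest in the monocytic class, and Mnda is at 0 in the erythroid class in control and 3 h mice.

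At 24 h, the classes differed in what was still called. In the monocytic progenitor-like class 4 of 7 members were called (1.2% of all genes called): Mnda at 18.5 ± 3.69 CPM, AI607873 at 2.52 ± 0.846, Ifi203 at 153 ± 12.2 and Ifi204 at 17.4 ± 4.57. The other 3 did not reach the fold limit there. Mndal, at 0.58 on the log2 scale, passed the adjusted p (7.16e-06), while Aim2 at 0.31 (adjusted p = 0.217) and Pyhin1 at 0.26 (adjusted p = 0.262) did not. In the neutrophil progenitor-like class it was 4 of 6 (1.07%), namely Mnda (19.7 ± 3.14 CPM), Ifi203 (71.9 ± 12.6), Ifi204 (9.72 ± 1.30) and Mndal (92.0 ± 7.18). The later of the 2 clusters in that class, described below, had gone from 178 of 521 cells in control mice to 55 of 383, and in the early cluster alone, a choice made after seeing the data, Mndal was at 0.91 (adjusted p = 1.37e-10), under the fold limit. The erythroid progenitor-like class had Ifi203 (27.5 ± 7.73 CPM) and Mndal (56.9 ± 14.1) called, 2 of 5 members (2.22% of all genes), and the LMPP-like class Ifi204 (7.33 ± 1.03 CPM), 1 of 7 (0.979%). In the HSC-like and MK progenitor-like classes 0 members were called at 24 h by edgeR's quasi-likelihood test (0.659% and 0.484% of all genes) and by DESeq2, with 3 and 2 members at an unadjusted p under 0.05. Ifi203 nonetheless passed the adjusted p there without the fold limit, with log2 fold changes of 0.61 (adjusted p = 3.17e-05) and 0.68 (adjusted p = 6.29e-05), and so did Mndal with 0.62 in both (adjusted p = 0.000172 and 0.000626). Whether the classes differed in their change at 24 h was not tested.

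At 72 h, Mnda and Ifi204 fell below control in the HSC-like class (2 of 7 members, 0.887% of all genes). They went from 8 and 9 UMIs in the control mice to 0 UMIs in 327 cells of the 4 treated mice. A floor of 3 counts over the treated group is 4.11-fold and 4.63-fold below the pooled control levels, whose own error is not in these folds. The adjusted p of Mnda and Ifi204 were 0.0476 and 0.0206 by edgeR's quasi-likelihood test. Both ranges overlapped, since 1 of 3 control mice was also at 0. The Mnda call was lost without control mouse 1 or 3, 3 h mouse 1 or 4, or any of the 72 h mice (adjusted p from 0.0547 to 0.375), and the Ifi204 call without control mouse 1 or 3 or 72 h mouse 1 or 3 (adjusted p from 0.0606 to 0.115). In the LMPP-like (0.776% of all genes called), monocytic (0.859%), neutrophil (0.751%), erythroid (0.832%) and MK progenitor-like classes (0.668%), 0 members were called at 72 h by edgeR's quasi-likelihood test and by DESeq2, with 1, 1, 2, 1 and 0 members at an unadjusted p under 0.05. Pyhin1 in the neutrophil progenitor-like class stayed above every control mouse at 72 h (53.3 ± 9.64 against 36.3 ± 7.94 CPM, log2 fold change 0.61, adjusted p = 0.00341), within the fold limit. The later cluster, which has less Pyhin1, made up 36 of 216 cells of the class at 72 h, and in the early cluster alone, a choice made after seeing the data, the value was 0.36 (adjusted p = 0.105). With clustering on all variable genes it was 0.51 (adjusted p = 0.185).

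Whether the change at 3 h itself differed between classes was tested against the HSC-like class in 1 model with mouse as a term. Called means an adjusted p under 0.05 here. The model held the 3 h mice and control mice 1 to 3. Control mouse 4 had at least 10 cells in the neutrophil progenitor-like class alone and so dropped out. Ifi203 rose more in the erythroid progenitor-like class, by 2.98 on the log2 scale (SE 0.27, adjusted p = 1.67e-12), and so did Mndal, by 1.23 (SE 0.19, adjusted p = 9.57e-06), 2 members where 1.18% of all genes were called. Both genes had started from a lower level in the erythroid progenitor-like class, and both were still lower there at 3 h than in HSC-like cells. In the neutrophil progenitor-like class, Ifi203 rose more than in the HSC-like class by 0.95 (SE 0.16, adjusted p = 5.62e-05), the only member called there (1.84% of all genes).

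The neutrophil progenitor-like class joins an early cluster (Elane and Mpo) and a later one (S100a8, S100a9 and Elane), and the later one made up 178 of 521 cells in control mice and 18 of 145 at 3 h. Pooled over mice, Ifi203 was at 35.0 CPM in the early and 9.41 CPM in the later cluster in control mice, and at 341 and 277 CPM at 3 h. In the early cluster alone, a choice made after seeing the data, the difference from HSC-like cells in the change of Ifi203 was 0.59 (adjusted p = 0.0462).

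Against the LMPP-like (0.303% of all genes called), monocytic (1.59%) and MK progenitor-like classes (0.0324%), 0 members passed by edgeR's quasi-likelihood test, with 2, 2 and 1 members at an unadjusted p under 0.05. Their estimates were wide for the members with few UMIs: the change of Mnda in LMPP-like cells was 3.41 larger than in HSC-like cells with a 95% interval from 1.18 to 5.64 (adjusted p = 0.262), and that of Ifi204 2.02 larger with an interval from -0.50 to 4.53 (adjusted p = 0.725). The change of Mndal in monocytic progenitor-like cells was 0.49 below that in HSC-like cells (difference -0.49, interval -0.78 to -0.19, adjusted p = 0.0847), and without 3 h mouse 1 it was -0.55 with an adjusted p of 0.0343. For Pyhin1 in erythroid progenitor-like cells the difference was 4.32 (interval 1.65 to 6.99, adjusted p = 0.128). Aim2 differed from HSC-like cells by between -0.999 (erythroid) and -0.01 (LMPP-like), with adjusted p of 0.416 or more.

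**Figure D3:**
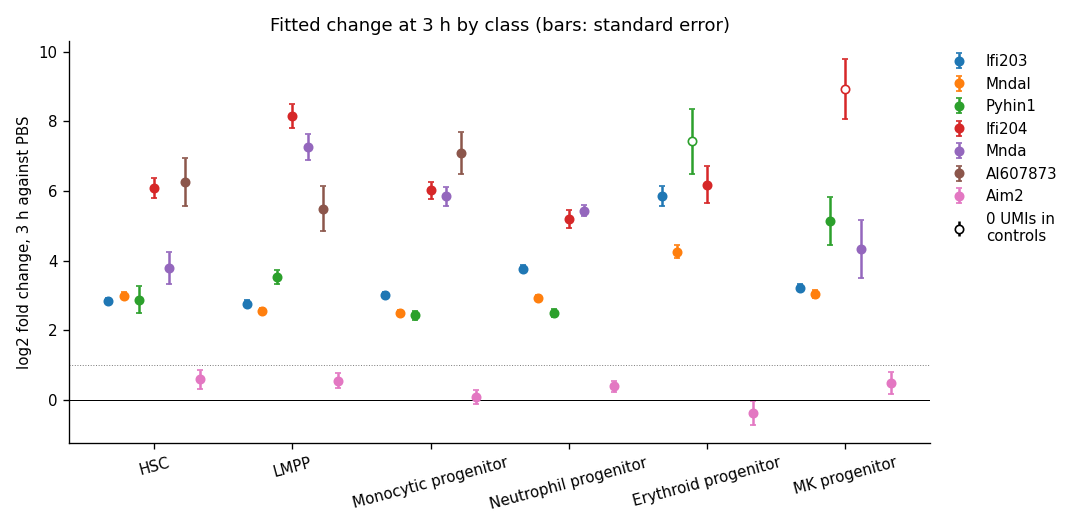
Fitted log2 fold change at 3 h against control for each member in each class where it was tested, with bars of 1 standard error, a dotted line at the fold limit of 1 and open symbols where the control mice had 0 UMIs, so that the fitted size depends on the prior count. All members but Aim2 stand above the limit in every class where they are drawn, and Ifi203 and Mndal are highest in the erythroid progenitor-like class.

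To see whether more cells carried a transcript, each cell was thinned to 5000 UMIs, which left out 35, 61, 35 and 68 cells of the control, 3, 24 and 72 h libraries, and the share of cells with at least 1 UMI was taken per mouse. Ifi203 was found in 30.7 ± 1.58% of control cells and 90.3 ± 1.35% of cells at 3 h, and Mndal in 34.3 ± 1.66% and 90.9 ± 1.63%. Ifi204 went from 1.07 ± 0.470% to 37.0 ± 5.31%, Pyhin1 from 5.93 ± 0.813% to 28.4 ± 3.32%, Mnda from 1.03 ± 0.861% to 19.7 ± 2.54% and AI607873 from 0.277 ± 0.324% to 6.30 ± 1.396% of cells. For these 6 members the 4 mice at 3 h lay above the 4 control mice, as in 6.83% of all 12042 genes (22.8% did not overlap in either direction), whereas Aim2 was in 11.9 ± 1.89% and 12.3 ± 1.79% of cells. The two-sided exact permutation test gave p = 0.0286 for each of the 6, the smallest p that 4 against 4 mice allow, and p = 0.8286 for Aim2. Adjusted over the 21 values of members and time points, these are 0.0545 and 0.916 by Benjamini-Hochberg, so that 0 of 21 values had an adjusted p under 0.05, while 11 had an unadjusted p under 0.05.

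By 24 h, Ifi203 was in 49.3 ± 3.62%, Mndal in 49.3 ± 2.85% and Pyhin1 in 8.48 ± 0.876% of cells, still above all control mice (exact permutation p = 0.0286), as in 5.98% of all genes (11.4% did not overlap in either direction). At 72 h, Ifi203 stood at 35.6 ± 2.94%, again above all control mice, and Ifi204 at 0.386 ± 0.356%, below all of them, where 13.3% of all genes did not overlap in either direction. Counting the 7 members together, 41.8 ± 3.13% of control cells had none of them and 3.23 ± 1.22% had 3 or more. At 3 h, 1.34 ± 0.557% had none and 54.5 ± 4.62% had 3 or more, with a mean of 2.85 ± 0.0929 members per cell against 0.852 ± 0.0450 in control. At 24 and 72 h the mean was 1.25 ± 0.0620 and 0.894 ± 0.0328.

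Over the classes at 3 h, Ifi203 was found in 98.7% of 234 HSC-like cells and 63.8% of 105 erythroid progenitor-like cells, and Mndal in 99.6% and 70.5%. Ifi204 was in 56.0% of HSC-like cells, 49.6% of 137 monocytic progenitor-like cells and 17.1% of erythroid progenitor-like cells. Mnda was in 56.2% of monocytic, 49.0% of 145 neutrophil and 17.1% of HSC-like cells, and in 0 of 105 erythroid progenitor-like cells, which allows a share of up to 2.86% by a count of 3. This limit covers counting error only, and it concerns cells with a UMI at this depth, not cells that express Mnda. The erythroid progenitor-like cells had a median of 20987 UMIs before thinning, against 22881 in the monocytic and 8100.5 in the HSC-like class. In control mice, the same class had Ifi203 in 2.84%, Mndal in 10.9% and Mnda in 0 of 211 cells (up to 1.42% by a count of 3), at a median of 31053 UMIs before thinning.

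**Figure D4:**
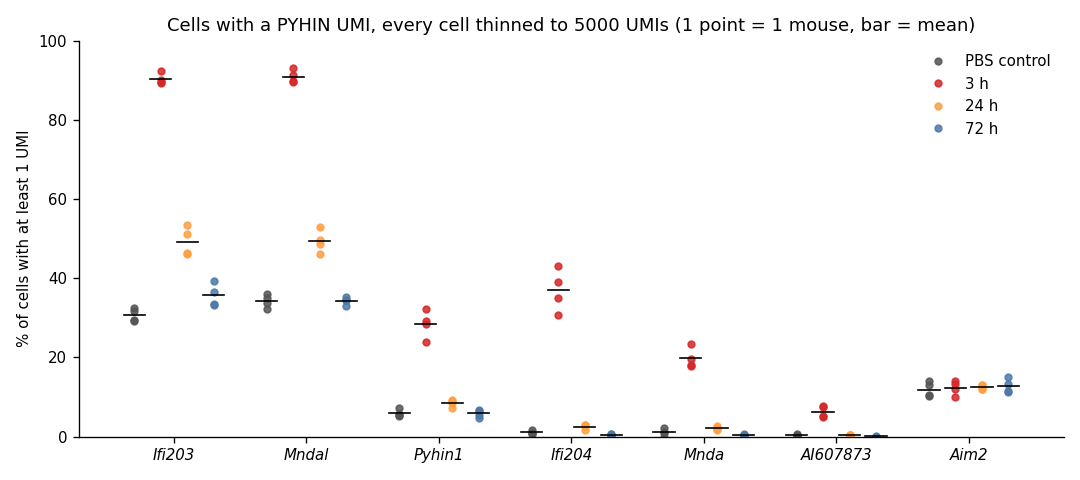
Percentage of cells with at least 1 UMI of each member after thinning every cell to 5000 UMIs, with 1 point per mouse and a bar at the mean for the 4 time points. The means of Ifi203 and Mndal reach 90.3% and 90.9% at 3 h and that of Ifi204 37.0%, while the means of Aim2 lie between 11.9% and 12.7%.

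Of the few control UMIs of AI607873 and Mnda, many came from a small cluster led by Cd74, H2-Aa and Lyz2, numbered 12, which stayed unnamed. It held 36 control cells (1.46%) and 6, 5 and 6 cells at 3, 24 and 72 h (0.361%, 0.144% and 0.245%), so its share moved with the time point. In control mice these cells held 16 of the 23 UMIs of AI607873 (69.6%), 49 of the 178 of Mnda (27.5%), 14 of the 96 of Ifi204 (14.6%) and 1.81% to 4.44% of those of the other members. Their pooled level was 34.7 CPM for AI607873 and 106 CPM for Mnda, against 0.128 and 2.35 CPM in all other control cells. Without this cluster, a choice made after seeing the data, AI607873 at 72 h had a log2 fold change of -0.41 (adjusted p = 0.752) and was 6.91 above control at 3 h and 2.72 at 24 h, while Mnda at 72 h was at -1.05 (adjusted p = 0.0423). With equal weight to every class, which moved the median of all genes at 3 h to -0.22, Mnda at 72 h was at -0.42 (adjusted p = 0.222), AI607873 at -0.09 (adjusted p = 0.84), and at 24 h AI607873 (0.67) and Ifi203 (0.75) were under the fold limit. In that fit 1 CPM was added before the log, which shrinks the changes of genes near 0. The fit also holds the 6 tested classes alone, so this cluster and all other untested cells are left out of it. Class weight and the left-out cells cannot be told apart in its values. AI607873 could not have reached the fold limit at 72 h there, so its lost call says nothing of class weight.

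Of the other PYHIN symbols listed, 5 have a row in the tables. Of these, Ifi202b had 0 UMIs in all libraries. The other 4 passed the filter and were called higher at 3 h, where 6.9% of all genes were called. Pydc3 (named Ifi208 in vM21) was 7.80 higher on the log2 scale. This is a description, since Pydc3 passed the filter only through the 3 h mice and so had to differ. Pydc4 (Ifi213) rose by 5.99, BC094916 (Ifi214) by 3.67 and Ifi205 by 1.69, with adjusted p from 6.12e-17 to 0.0253 by edgeR's quasi-likelihood test. At 24 h, Pydc3 (2.83) and Pydc4 (2.61) were still called (2.22% of all genes called). At 72 h Pydc4 alone was called, below control (log2 fold change -1.54, adjusted p = 0.0297 by edgeR's quasi-likelihood test). It rested on 31 control UMIs and 8 UMIs at 72 h. At that time 2.86% of all genes were called, and a single called gene is no result about these rows. Ifi205 was nearly confined to the small cluster of Cd74 and H2-Aa, with 87 of its 89 control UMIs and 81 of its 106 UMIs at 3 h, and its 3 h mice (1.39 to 12.9 CPM) overlapped the controls (0 to 2.16 CPM). The promoter windows of Pydc3, Pydc4 and BC094916 held GAAANNGAA from -58 to -50, -73 to -65 and -79 to -71, and that of Ifi205 from -134 to -126 and, on the opposite strand, from base 25 to 33 after the start.

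Of 27 other rows of the tables within 500 kb of the 7 members, 3 passed the filter. Gm4955, named Ifi206 in vM21 and so a PYHIN gene as well, had 0.730 ± 0.165 CPM in control mice and 60.7 ± 3.48 CPM at 3 h (log2 fold change 6.45). Fcer1a, a chain of the IgE receptor and a marker of basophil and mast cell progenitors, was below control at 3 h (-1.67). Basophil, mast cell and eosinophil progenitor-like cells went from 2.47% of kept cells in control mice to 0.843% at 3 h. A change of Fcer1a within these cells was not tested. Gm4955 was found through its position, after its values could be seen.

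**Figure D5:**
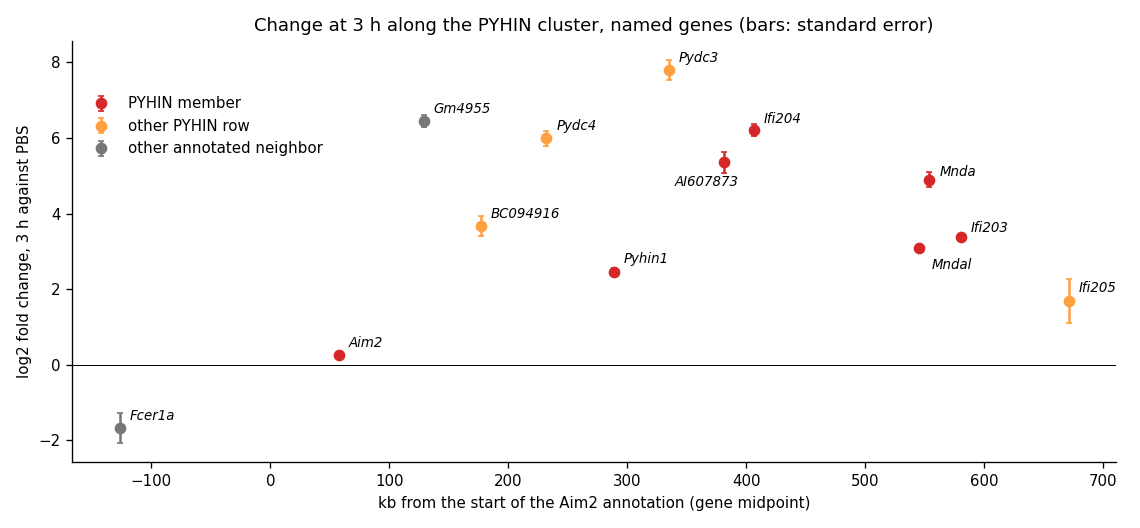
Fitted log2 fold change at 3 h against control (bars, 1 standard error) for the named genes in and beside the cluster by the distance of the gene's midpoint from the start of the Aim2 annotation in kb. Red points are the 7 members, orange points other PYHIN rows and gray points the neighbors Gm4955 and Fcer1a. The called PYHIN genes between Pyhin1 and Ifi203 stand between 2.46 and 7.80, and Aim2 at 0.26. Pydc3, at 7.80, and AI607873 passed the filter on low counts only through the 3 h mice and so had to differ.

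The partners of the family were followed through lists of genes. Of 24 tested genes of DNA sensing and its STING arm, 8 rose and 0 fell at 3 h. At 24 h 4 rose, and at 72 h 0 were called. Over all genes, 6.9%, 2.22% and 2.86% were called at these times. The median log2 fold change of the list at 3 h was 0.21, beside -0.03 over all genes. The 8 were the DNA sensor Mb21d1 (cGAS), Zbp1, Irf7, the RNA sensors Ifih1 and Ddx58, the nucleotide hydrolase Samhd1, Trim56 and Trim30a. Irf7, a transcription factor of interferon genes, went from 10.5 ± 6.49 to 354.5 ± 17.9 CPM (log2 fold change 5.53, adjusted p = 1.61e-19), and Zbp1, a sensor of left-handed nucleic acids, from 9.69 ± 8.14 to 241 ± 17.9 CPM (5.30, adjusted p = 4.79e-18).

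Of 19 tested genes of the inflammasome arm, which Aim2 acts through, 4 rose (Gbp2, Gbp5, Casp4 and Il18) and Mefv fell at 3 h. At that time 6.9% of all genes were called. Gbp2 alone was called at 24 h (2.22% of all genes) and Mefv alone, lower, at 72 h (2.86%). A single called gene is no result about the list. The median at 3 h was 0.10, beside -0.03 over all genes. Gbp2, a guanylate-binding protein, reached 89.1 ± 11.3 CPM at 3 h from 7.67 ± 1.69 (log2 fold change 3.42), and Gbp5 49.7 ± 5.25 from 6.12 ± 0.609 CPM (3.01). Of 12 genes of interferon signaling, 6 rose at 3 h (among them Stat2, Irf9, Irf1, Usp18 and Socs1) and Irf8 fell, with a median of 1.04. Usp18 was the only one called at 24 h (2.22% of all genes). Usp18, a feedback inhibitor at the receptor, reached 295 ± 23.4 CPM from 7.36 ± 2.65 (log2 fold change 5.58).

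Across the 24 means of class and time point on the log2 scale, the genes most alike to each member were sought among 12035 tested genes. Among the 3 highest were Epsti1 (r = 0.982), Psme1 and Phf11b for Ifi203, Phf11b (0.969), Sp100 and Dtx3l for Mndal, Nampt (0.961), Cxcl10 and Mx1 for Ifi204, and Snx2 (0.947), Psme2b and Phf11a for AI607873. For Pyhin1 they were Mpeg1 (0.927) and Plac8, for Mnda the PYHIN row BC094916 (0.918), Fcgr1 and Ms4a6d, and for Aim2 Arap2 (0.926), St8sia4 and Itgb5. The points share libraries and mice, so these values are descriptions.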

How the data were processed

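RNA of LK cells from 16 mice was read as droplet libraries with hashtag antibodies, 1 pair of libraries per time point (8 GEO samples, 4 of them hashtag libraries). The authors deposited whole-number UMI counts per gene and cell made with Cell Ranger 3.1.0 on mm10 (both from the submitters' processing notes), and the hashtag call of each barcode from Seurat. The gene annotation used for counting is not given in the sources used here. From these files, cells with a single hashtag, at least 700 genes and at most 5% mitochondrial UMIs were kept, and their counts were summed per mouse, and per mouse and class where a mouse had at least 10 cells. Mouse numbers follow the hashtag numbers.

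Sums were fitted over all 16 mice with edgeR 4.0.16 (quasi-likelihood test, TMM scaling, filterByExpr) in R 4.3.3, and p-values were adjusted over all genes tested. Called values passed an adjusted p of 0.05 and an absolute log2 fold change of 1. Control cells were clustered with scanpy 1.11.5 (500 variable genes, 10 components, 15 neighbors, Leiden resolution 0.8, the listed PYHIN rows and interferon-response genes left out, Gm4955 not among them), clusters were named from fixed markers, and labels were transferred to treated cells. No doublet caller was used beyond the hashtags in the main values: Scrublet's own threshold marked 0 to 4 cells per library and so did not work, and removing the highest scores was an alternative. Shares of cells were taken after thinning each cell to 5000 UMIs. A group at 0 UMIs was bounded by 3 counts over the group. On simulated counts for the 3 h comparison over 11922 genes, 86.9% of 2-fold and 96.9% of 4-fold changes were recovered at an adjusted p of 0.05. Of the genes under this adjusted p, 6.7% were false. The fold limit was not applied in the simulation, so these shares are not those of the called values. In the classes, 56% (HSC-like) to 83.7% (neutrophil progenitor-like) of 2-fold changes were recovered. Limits from 3 counts cover counting error of the group at 0 only. In folds from such a limit, the other group enters by its pooled CPM without its own error. Each SE was derived from the log2 fold change and the F statistic of its quasi-likelihood test. Intervals of class differences were built from these SE and need not match the test.

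The members and lists were chosen with earlier results of these data known. The named genes are the 7 members, the other PYHIN rows, the members of the pathway lists that were called, and the 3 genes most alike to each member; Gm4955 was named after its values were seen. The alternatives were other normalizations and tests (library size, DESeq2 1.42.0, a likelihood ratio test), filters, clusterings, thinning depths, a hashtag block and leaving out each mouse. Same-numbered mice share only a hashtag number. Leaving out the small Cd74 cluster, and the neutrophil class from its early cluster alone, were chosen after seeing the data. Promoter windows are RefSeq's on GRCm38.p6, and spans are those of GENCODE vM21. Results for a few genes of the lists are not reported here.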

Additional observations from a re-analysis of the deposited data

Results flagged for a closer look

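Of 56 groups of 4 mice tested for a value far from the other 3 by Dixon's criterion, 6 were flagged, where chance flags about 1 in 20. Pyhin1 at 24 h was lower in mouse 1 (27.7 CPM) than in the other 3. Ifi204 at 72 h was higher in mouse 1 (1.70 CPM). Aim2 was lower in control mouse 4 (16.5 CPM), which had 58 cells, and higher in 3 h mouse 3 (29.8 CPM). Mndal at 24 h was higher in mouse 2 (144.7 CPM). AI607873 was found in 0.21% of the thinned cells of 72 h mouse 2, whereas the other 72 h mice had none. With the other mice at 0, any value above 0 would have been flagged, so this flag was fixed by the low counts.

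Changes at 3 h differed between classes by a test of the difference in 3 cases: Ifi203 rose by 2.98 and Mndal by 1.23 more on the log2 scale in erythroid progenitor-like than in HSC-like cells, and Ifi203 rose by 0.954 more in neutrophil progenitor-like cells.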

How the results depend on the processing

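The 6 members called in the whole compartment at 3 h, and the 6 and 3 called in the steps from 3 to 24 h and from 24 to 72 h, kept their numbers under every alternative run, and no value changed its direction where it was called. AI607873 is counted among them and passed the filter on low counts only through the 3 h mice. Where that filter was used, its rise at 3 h and its fall to 24 h were fixed, so their persistence is no support. At 24 h (4 members), equal weight to every class left 2. At 72 h (2 members), the hashtag number as replicate block and removal of the highest Scrublet scores each left 1. So did leaving out the small Cd74 cluster. Fitting each time point with control alone also left 1, but AI607873 was not tested there. It did not pass the filter on low counts without the 3 h mice. Equal weight left 0. The equal-weight fit adds 1 CPM before the log and so shrinks changes near 0, and AI607873 could not be called there at 72 h. It also holds the 6 tested classes alone, without the small Cd74 cluster and the other untested cells. Equal weight also lowered the called genes from 831, 267 and 345 to 444, 77 and 68 at 3, 24 and 72 h. In HSC-like cells at 72 h (2 members), DESeq2, the replicate block and clustering with all variable genes left 1 and classes from markers alone 0, and at 24 h (0 members) clustering with all variable genes gave 1. In LMPP-like cells at 24 h (1 member), transfer without correction gave 3, all variable genes 0 and markers alone 2. Markers alone gave 2 in monocytic progenitor-like cells at 24 h (4 members) and 1 in MK progenitor-like cells at 24 h (0 members), and both markers alone and no filter on low counts gave 1 in erythroid progenitor-like cells at 72 h (0 members). Thinning to 8000 UMIs gave 5 members without overlap at 24 h (13.4% of all genes) and 1 at 72 h (16% of all genes), against 3 and 2 at 5000 UMIs. Without thinning there were 6 at 24 h (16.4% of all genes), and 14 of 21 values had an adjusted p under 0.05 by the exact permutation test. At 3 and 72 h, 63.4% and 33.3% of all genes did not overlap without thinning. The median depth was 12017 UMIs per cell at 3 h and 14763 at 72 h, against 18964.5 in control. Apart from the filter on AI607873 at 72 h and the added 1 CPM, the causes were not tested.

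Leaving out 1 mouse at a time gave 3 to 4 members at 24 h and 0 to 3 at 72 h in the whole compartment, 0 to 2 in HSC-like cells at 72 h, 1 to 2 in LMPP-like and 4 to 5 in neutrophil progenitor-like cells at 24 h, and 3 to 4, 4 to 5 and 5 to 6 in erythroid, MK and neutrophil progenitor-like cells at 3 h. The class difference of monocytic progenitor-like cells ranged from 0 to 1 member, and members without overlap in cells with a UMI from 3 to 4 at 24 h and 2 to 3 at 72 h. Same-numbered mice did not deviate together (correlations from -0.0582 to 0.0946), so the numbers do not pair them: the replicate block changed the calls of AI607873 at 72 h in the whole compartment (adjusted p = 0.0616) and of Mnda at 72 h in HSC-like cells (adjusted p = 0.053) by edgeR's quasi-likelihood test. In single classes, members with few UMIs, AI607873 above all, rest on few counts.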
